A study of Caenorhabditis elegans with 2 samples.

Results

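Cytosolic ribosomal protein genes were followed in a chromatin map of EGL-44, the TEA domain (TEAD) transcription factor of Caenorhabditis elegans. The genes were taken by name alone, as every nuclear protein-coding gene whose Ensembl symbol starts with rpl- or rps- or is rla-0, rla-1 or rla-2. This gave 81 of 19973 nuclear protein-coding genes. By symbol alone, 50 were counted to the large subunit (rpl- and rla-) and 31 to the small subunit (rps-). RefSeq names 20 of the 81 differently, and its name is given in brackets at first mention where it matters. A single group was profiled by ChIP-seq, in which anti-GFP antibody recovered the DNA held by the tagged factor: whole young adults of strain RW12173, aged 66.5 h, in 2 biological replicates. Worms were synchronised as starved L1 larvae, carried GFP inserted by CRISPR at egl-44 (allele st12173, with a loxP-flanked unc-119(+) marker) and had the unc-119(tm4063) background. No untagged strain, other stage or control library was used here, and binding in different tissues of a whole worm cannot be told apart. The files list called regions without read counts, so depth is unknown, and a signal is the authors' own value for a region.

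Each ribosome joins a small subunit, which decodes the mRNA, to a large subunit, which forms peptide bonds. Their proteins are needed in fixed proportions, and their genes are among the most highly expressed in growing cells. In C. elegans many mRNAs receive a spliced leader, so an annotated transcript start can be the splice site and lie downstream of the place where transcription began. TEAD proteins bind DNA and recruit the YAP coactivator of the Hippo pathway, which is known for the control of growth. These statements are background and not results of these data.

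The sequences under 7 of the 10 strongest ribosomal protein peaks are given first, because several of them share short words that recur through the results. The letters are from the RefSeq genome of the same assembly as the peaks (ce11), written 5′ to 3′ on the strand of the ribosomal protein gene. For rpl-3, rpl-35, rpl-15 and rpl-20 (RefSeq rpl-18A) the whole called region is shown. For rps-24, rps-23 and rps-1 (RefSeq rps-3A) 60 bases to each side of the summit are shown. Capitals mark the word TACGGTA, the word GGCCTAA and the word GTGTATG or their reverse complements, and rps-24 is shown as a strong peak that holds none of them. Those of rps-26, rps-19 and rpl-12 are not shown, and within 100 bp of the summit rps-19 and rpl-12 likewise hold none of the words, while rps-26 holds GGCCTAA. The stretch at rps-1 overlaps exons of non-coding RNA genes, and the other stretches overlap no annotated exon.
rpl-3 (chrIII:3867480-3867662, plus strand): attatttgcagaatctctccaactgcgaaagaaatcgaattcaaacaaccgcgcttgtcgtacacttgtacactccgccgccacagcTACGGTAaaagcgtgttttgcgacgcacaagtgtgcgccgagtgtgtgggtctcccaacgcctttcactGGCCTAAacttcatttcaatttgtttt
rpl-35 (chrIII:7854604-7854766, plus strand): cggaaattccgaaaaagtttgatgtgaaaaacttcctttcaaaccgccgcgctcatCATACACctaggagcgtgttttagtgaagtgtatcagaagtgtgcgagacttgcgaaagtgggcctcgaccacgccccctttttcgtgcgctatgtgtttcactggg
rpl-15 (chrIV:654856-654990, minus strand): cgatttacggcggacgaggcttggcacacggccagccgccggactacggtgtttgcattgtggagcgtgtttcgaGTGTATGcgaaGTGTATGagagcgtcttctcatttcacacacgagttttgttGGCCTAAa
rpl-20 (chrIV:4749998-4750143, minus strand): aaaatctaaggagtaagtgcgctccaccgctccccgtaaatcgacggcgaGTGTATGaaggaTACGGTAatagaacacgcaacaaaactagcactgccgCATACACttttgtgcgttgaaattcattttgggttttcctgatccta
rps-24 (chrIV:385510-385630, plus strand): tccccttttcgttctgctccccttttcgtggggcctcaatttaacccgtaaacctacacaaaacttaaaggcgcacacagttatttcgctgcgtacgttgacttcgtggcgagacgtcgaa
rps-23 (chrIV:12391258-12391378, minus strand): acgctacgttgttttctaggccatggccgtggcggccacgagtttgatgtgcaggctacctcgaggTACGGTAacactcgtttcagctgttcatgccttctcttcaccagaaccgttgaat
rps-1 (chrIII:4475595-4475715, plus strand): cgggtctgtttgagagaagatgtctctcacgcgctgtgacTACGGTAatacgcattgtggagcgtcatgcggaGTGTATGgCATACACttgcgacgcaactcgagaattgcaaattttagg

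Promoter peaks were found at 24 of the 81 genes, on 24 separate regions. A promoter peak is a region of the pooled thresholded list whose summit lies 1000 bp upstream to 200 bp downstream of any annotated transcript start of the gene. That is 29.6% of the ribosomal protein genes (95% Wilson interval 20.8 to 40.3), while 4.03% of all nuclear protein-coding genes had such a peak. The interval covers the counting of genes only, and no test was made of the difference. The large subunit had 16 of 50 genes with a peak (32.0%, 20.8 to 45.8) and the small subunit 8 of 31 (25.8%, 13.7 to 43.2). The intervals of the subunits overlap over most of their length, so no difference in share between them is shown.

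The share depended on the list. In replicate 1's own list 15 of 81 genes had a promoter peak (18.5%), beside 2.29% of all coding genes. In replicate 2's own list the number was 11 (13.6%), beside 1.47% of all coding genes. All genes found in either replicate's own list were among the 24 of the pooled list. The large subunit had 9 genes in replicate 1's list and 5 in replicate 2's, and the small subunit had 6 in each. The conservative list held 23 genes (28.4%), beside 3.8% of all coding genes. It held rps-15 in addition, and it lacked rps-28 and rpl-14.

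**Figure D1:**
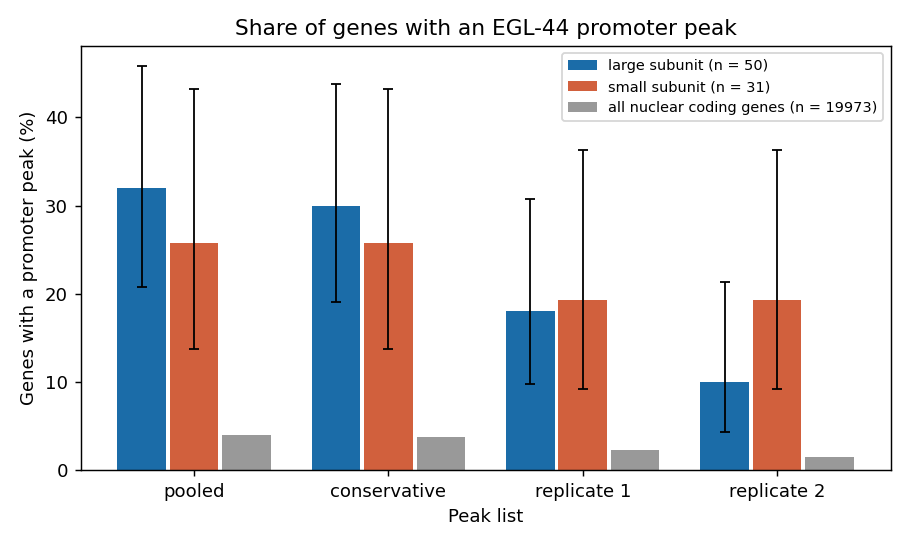
Percentage of genes with a promoter peak in 4 peak lists, for large subunit genes (blue), small subunit genes (orange) and all nuclear coding genes (grey); error bars are 95% Wilson intervals over genes. Both subunits lie above the grey bars in each list, at 32.0% and 25.8% against 4.03% in the pooled list, and their error bars overlap in each list.

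The 4 strongest peaks belonged to the large subunit. The highest was at rpl-3, whose protein reaches the catalytic centre of the ribosome, with a signal of 362 in the pooled list, 203 in replicate 1's ranked list and 166 in replicate 2's. It ranked 5 among the 1537 nuclear peaks. At rpl-35, whose protein sits by the exit of the nascent peptide, the signals were 302 in the pooled list, 176 in replicate 1 and 126 in replicate 2. This peak ranked 7 and lay farthest upstream of the 4, 451 bp before the start. The gene rpl-15, for a core protein of the large subunit, had 268 in the pooled list, 131 in replicate 1 and 136 in replicate 2, and ranked 11. The gene rpl-20 had 255 in the pooled list, 146 in replicate 1 and 107 in replicate 2, and ranked 16. These 4 peaks were in both replicates' own thresholded lists, and all 4 summits were in intergenic sequence. The signal scale is not stated to be the same between lists, so values are compared down a list and not across lists.

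The next 4 peaks belonged to the small subunit and were likewise in both replicates' lists. The gene rps-26, whose protein lies where mRNA leaves the subunit, had a peak at I:14759468-14759546 with signals of 170 in the pooled list, 100 in replicate 1 and 68.4 in replicate 2. The gene rps-19, for a protein of the subunit's head, had one at I:9626033-9626135 with signals of 166 in the pooled list, 94.8 in replicate 1 and 75.6 in replicate 2. In humans, loss of one copy of the counterparts of rps-19, rps-24 or rps-26 causes Diamond-Blackfan anaemia. The gene rps-24 had signals of 147 in the pooled list, 86.8 in replicate 1 and 61.1 in replicate 2. For rps-23, whose protein lies at the decoding centre, they were 119 in the pooled list, 66.1 in replicate 1 and 54.0 in replicate 2. All 4 summits were intergenic, and they ranked 75, 80, 129 and 256 among nuclear peaks.

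The peaks of rpl-12 and rps-1 came next and differed in where they lay. At rpl-12, whose protein forms the base of the stalk that binds elongation factors, the peak IV:13240490-13240799 had a signal of 110, with 72.3 in replicate 1 and 33.7 in replicate 2. Its summit was in the gene's own 5' UTR, 6 bp downstream of a start, and only replicate 1's own list held it. At rps-1 the peak III:4475500-4475809 had a signal of 109, with 70.0 in replicate 1 and 51.0 in replicate 2, and both lists held it. Its summit lay in exons of the non-coding RNA genes F56F3.10 and F56F3.11.

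The remaining 14 members with a peak had pooled signals at or below 93.8. Small subunit genes among them were rps-28 (93.8), rps-20 (87.5) and rps-6 (61.6), the last encoding the classical substrate of S6 kinase. Large subunit genes were rpl-7A (90.03), rla-1 (RefSeq rplp-1, a stalk protein, 86.7), rpl-11.2 (84.9), rpl-39 (83.8), rpl-43 (RefSeq rpl-37A, 78.6), rpl-7 (74.5), rpl-41.2 (73.6), rpl-16 (RefSeq rpl-13A, 71.0), rpl-1 (RefSeq rpl-10a, 67.9) and rpl-14 (57.1). The protein of rpl-11.2 binds 5S rRNA together with that of rpl-5, and rpl-39 encodes a small protein that lines the peptide tunnel. The last of the 14, rpl-31, had a signal of 3.55 at a region whose summit was in the gene's own coding exon (I:13652921-13653230). That region overlaps a neighbouring peak of signal 85.5 whose summit lies 379 bp into the gene, outside the promoter window. The replicate values that overlap the rpl-31 region, 71.5 in replicate 1 and 23.9 in replicate 2, can belong to either region. Of all 1537 nuclear peaks, 48 had a signal under 10, so such low values are not confined to rpl-31.

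Across the 24 peaks the median signal was 88.8, close to the 85.3 over all 805 coding genes with a promoter peak. The median percentile among nuclear peaks was 61.0 for ribosomal protein genes and 56.7 for all coding genes with a peak. The genes spread over nearly the whole range, with rpl-14 at the 9.50th percentile. The top 100 nuclear peaks held 6 of the 24, beside 45 of the 630 strongest promoter peaks of all coding genes. Small subunit peaks had a median signal of 114 (8 genes, 61.6 to 170) and large subunit peaks 84.3 (16 genes, 3.55 to 362). The range of the large subunit encloses that of the small subunit.

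**Figure D2:**
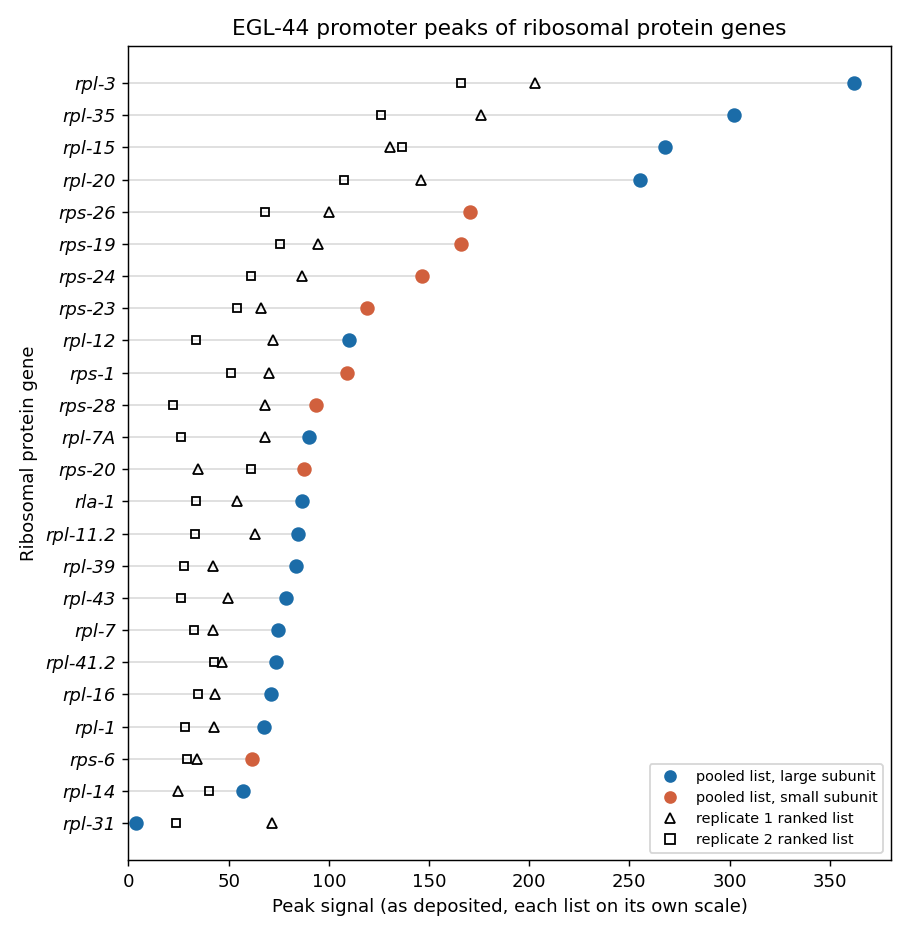
Peak signal of the 24 ribosomal protein genes with a promoter peak: filled circles are the pooled list (blue large, orange small subunit), open triangles replicate 1 and open squares replicate 2, each the strongest ranked region overlapping the pooled peak. The 4 blue circles at the top run from 255 to 362, and the 4 orange circles under them from 119 to 170; at rpl-31 the replicate symbols can belong to an overlapping neighbour.

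Support by the replicates' own lists was mixed: 9 of the 24 peaks overlapped a region of both lists (37.5%), 9 overlapped one of 1 list only and 6 overlapped none. Among all 630 strongest promoter peaks of coding genes, 24.4% were in both. By subunit, 4 of 16 large and 5 of 8 small subunit peaks were in both, and rpl-31 was counted with 1 list through the overlap described above. The 6 peaks in neither were those of rpl-39, rpl-43, rpl-7, rpl-1, rps-6 and rpl-14. Each of these 6 still overlapped a ranked region in both replicates, with signals from 24.7 to 49.9 in replicate 1 and 26.4 to 40.1 in replicate 2. Of the 24 regions, 6 were narrower than the 310 bp that the list gives most regions, as were 4.76% of the strongest promoter peaks of all coding genes. These 6 were also the 6 strongest.

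Summits lay in a band upstream of the genes. The median position was 300 bp upstream of the nearest start (24 genes, from 981 bp upstream to 128 bp downstream). Over all 805 coding genes with a promoter peak the median offset was −290 bp (negative is upstream), so the centre is not particular to ribosomal protein genes. Between 200 and 500 bp upstream lay 16 of the 24 summits (66.7%), against 36.9% of the 805. This band was chosen after the positions had been seen. All 8 small subunit summits lay in it, from 243 to 425 bp upstream, and 8 of 16 large subunit summits did. Within 200 bp of the start or downstream of it were rpl-7A (96 bp upstream), rpl-12 (6 bp downstream), rla-1 (120 bp downstream) and rpl-31 (128 bp downstream).

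The summits farthest from their gene lay in or near other genes. Those of rpl-39, rpl-16, rpl-1 and rpl-43 were 981, 927, 871 and 757 bp upstream. The rpl-39 summit was in a coding exon of another ribosomal protein gene, rps-30 (RefSeq fau-1, which encodes a ubiquitin-like protein fused to the ribosomal protein), downstream of that gene's own promoter window. The rpl-16 summit was in a coding exon of lias-1 and the rpl-1 summit in one of Y71F9AL.9. Over all 24 summits, 15 were intergenic, 5 in coding exons, 3 in exons of non-coding RNA genes and 1 in a 5' UTR. No summit was in an intron. The matching shares of other promoter peaks are not given here, so these places are not shown to be particular to ribosomal protein genes.

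**Figure D3:**
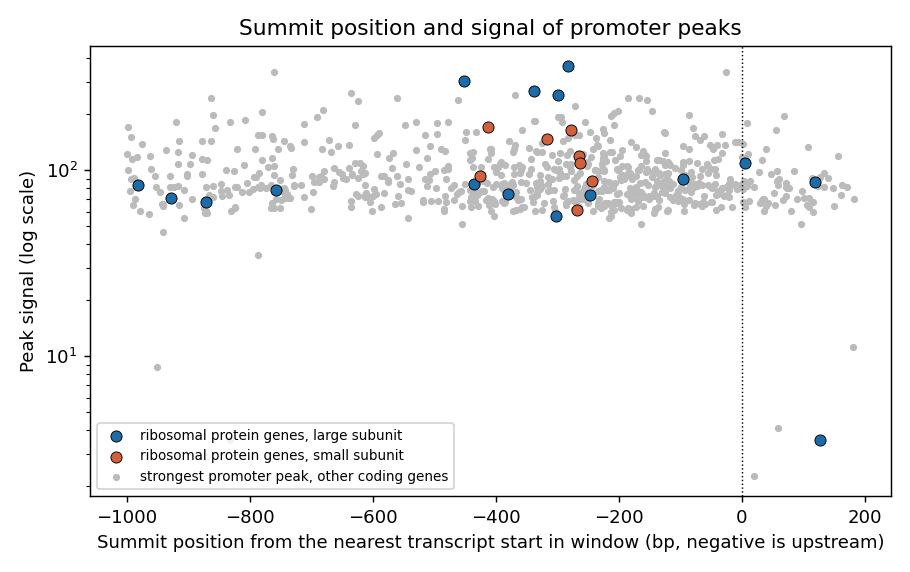
Summit position against signal (log scale) for the strongest promoter peak of each gene: large subunit (blue) and small subunit (orange) genes over the other coding genes (grey, without peaks shared with a ribosomal protein gene). The 8 orange points lie between 425 and 243 bp upstream, and the blue points run from 981 bp upstream to 128 bp downstream, with rpl-31 at the foot of the plot.

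Many of the peaks were in reach of a second coding gene. For 15 of the 24 (62.5%) the summit was also in the promoter window of another protein-coding gene. Of the 630 strongest promoter peaks of all coding genes 26.98% were shared, but there each peak is counted once. Those 630 peaks serve 805 genes, so the share counted by gene is higher and is not given here. The 2 shares are not like for like, and no excess of shared peaks is shown. In 14 of the 15 shared ribosomal protein peaks the other gene ran in the opposite direction, and the exception was rps-28. The direction at shared peaks of other coding genes is not given here, so this is not shown to be particular to ribosomal protein genes. At rpl-12 and rpl-31, both among the 14, the summit lay inside the ribosomal protein gene, downstream of its start. The 4 strongest of the 15 were rpl-15, paired with K11H12.8, rpl-20, paired with Y17G9B.5, rps-26, paired with tmem-107, and rps-19, paired with hsr-9. At rps-26 the summit was 413 bp from the ribosomal protein gene and 44 bp from tmem-107. At rps-19 the distances were 278 bp to rps-19 and 167 bp to hsr-9. The peaks of rpl-12 and rps-6 were shared with lin-54, which encodes a DNA-binding subunit of the DRM complex, and usp-3. Given to the gene with the nearest start, coding or not, 12 ribosomal protein genes kept a peak, 9 of the large and 3 of the small subunit. The matching share of all coding genes is not given here. Which gene of such a pair a peak belongs to cannot be told apart. The strongest peaks with no second coding gene in reach were those of rpl-3 and rpl-35.

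An RNA gene start was near a minority of these peaks, as it was for promoter peaks of all coding genes. A start of a tRNA, snoRNA, snRNA, rRNA, microRNA or ncRNA gene lay within 300 bp of 5 of the 24 summits (20.8%), and of 27.8% of the 630 strongest promoter peaks. The snoRNA gene F39B2.14 was 105 bp from the rps-26 summit, the only one of the 24 at a tRNA, snoRNA, snRNA or rRNA gene (4.17%, against 14.8% of the 630). The other 4 lay at genes annotated as ncRNA. Their starts were 2 bp from the summit at rps-1 (F56F3.11), 17 bp at rps-6 (Y71A12B.30), 62 bp at rpl-11.2 (AH9.7) and 83 bp at rpl-7 (F53G12.15). None of the 4 strongest peaks had an RNA gene start in reach.

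The other 57 ribosomal protein genes had no promoter peak, and most had a weaker ranked region. The pooled ranked list gives regions whatever their reproducibility. It had a summit in the promoter window of 76 of the 81 genes (93.8%), beside 63.8% of all coding genes, which shows how common such regions are. The genes with no region in the pooled ranked list were rpl-13, rpl-25.1 (RefSeq rpl-23A.1), rps-0 (RefSeq rpsa-1), rps-17 and rps-25. Each had a region in the ranked list of replicate 1, replicate 2 or both, with signals up to 20.3 (rps-17, replicate 2). Of the 57 genes without a peak, 52 had a ranked region, with a median strongest signal of 37.3, against 27.4 for the 11885 other coding genes with a ranked region but no peak. Among the 52, 10 (19.2%) were above the 90th percentile of all genes with a ranked region, against 4.01% of the 11885. Genes that share a region are each counted, as rpl-24.1 (RefSeq rpl-24) and rps-10 were among the 10. The genes were split on the reproducibility limit and not on signal, so these medians describe what that limit left.

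The strongest of these weaker regions reached signals that other members had at called peaks. The gene rpl-29 had 68.5 in the pooled ranked list, 22.7 in replicate 1 and 38.8 in replicate 2. Its region had a −log10 irreproducible discovery rate (IDR, the authors' measure of disagreement in rank) of 1.12, under the 2 that the list needs. The gene rps-15 had 65.0 in the pooled list and 44.0 in replicate 1, with no ranked region in the window in replicate 2. For rpl-22 the values were 63.5 in the pooled list, 23.1 in replicate 1 and 38.7 in replicate 2. For rpl-24.2 they were 62.2 in the pooled list, 45.2 in replicate 1 and 20.5 in replicate 2. For rps-8 they were 58.9 in the pooled list, 37.9 in replicate 1 and 17.0 in replicate 2. RefSeq calls rpl-24.2 rsl-24D1, and its yeast relative is an assembly factor and not a protein of the finished ribosome. All 5 stood above the called peak of rpl-14, which had 57.1 in the pooled list and a −log10 IDR of 2.05. The edge of the list was thus set by rank agreement, with rpl-7 just inside it at 2.02. The genes rpl-24.1 and rps-10 were just outside at 1.87, on their shared region of signal 57.5.

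**Figure D4:**
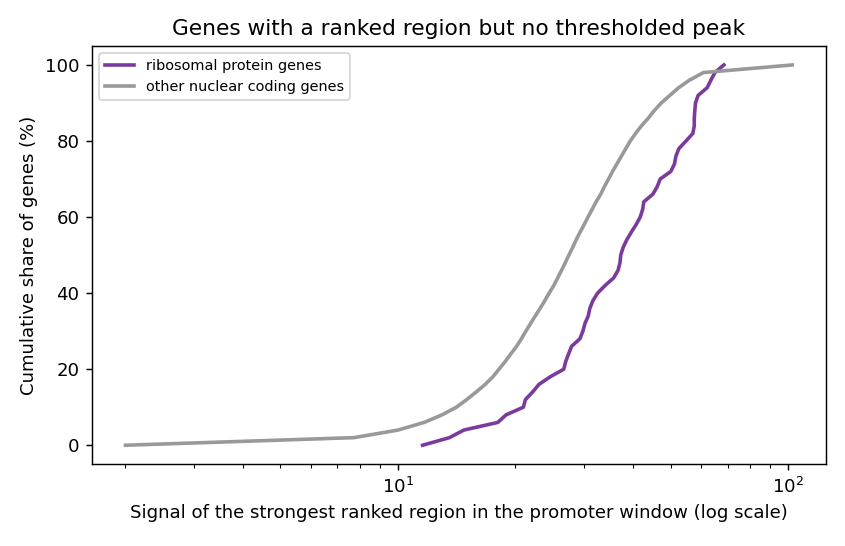
Cumulative share of genes (vertical) by the signal of the strongest ranked region in the promoter window (horizontal, log scale), for genes with a ranked region but no thresholded peak: 52 ribosomal protein genes (purple) and 11885 other coding genes (grey). The purple curve lies to the right of the grey one over most of its length, with medians of 37.3 and 27.4, and ends at 68.5.

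Numbered gene pairs did not share a pattern. The gene rpl-11.2 had a peak and rpl-11.1 none, with 29.9 as its strongest ranked signal. The gene rpl-41.2 had a peak and rpl-41.1, whose start is 1102 bp away on the same chromosome, had a ranked signal of 26.8. Neither gene of the rpl-24 or rpl-25 pair had a peak. Sequence identity within the pairs was not measured. How reads shared by similar copies were treated is not given in the sources used here, so values within a pair are uncertain. By chromosome, peaks were at 10 of 25 members on I (4.90% of all coding genes there), 1 of 10 on II (3.57%), 4 of 18 on III (5.45%), 7 of 18 on IV (3.99%), 1 of 8 on V (3.10%) and 1 of 2 on X (4.06%).

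Short words recurred near the summits of ribosomal protein peaks. Within 100 bp of the summit, on either strand, TACGGTA was at 8 of 24 peaks (33.3%) and at 3.62% of the 663 other promoter peaks of coding genes. GGCCTAA was at 7 of 24 (29.2%) and at 0.754% of the 663. GTGTATG was at 4 of 24 (16.7%) and at 4.68% of the 663. Among words of 7 letters with a G or C, ordered by their excess over the other promoter peaks, TACGGTA and GGCCTAA followed CCTAAAA, which overlaps GGCCTAA by 5 letters. GTGTATG was picked by eye from the sequences printed above. All 3 words were therefore chosen on these peaks, and their shares there carry no test. At least 1 of the 3 words was at 14 of 24 ribosomal protein peaks (58.3%) and at 8.75% of the others, and 2 of the 3 were at 5 (20.8%) and at 0.302%. The 5 were rpl-3, rpl-15, rpl-20, rps-1 and rpl-43.

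Of the 3 words, GGCCTAA alone had all its copies on one side of the summit. The nearest copies of TACGGTA were centred 1 bp from the rpl-3 summit, 2 bp from that of rpl-20, 9 bp from that of rps-23 and 17 bp from that of rps-1. The other copies were 24 bp away at rps-20, 34 bp at rpl-43, 90 bp at rpl-11.2 and 92 bp at rpl-7. Over the 8 copies the median distance was 20.5 bp, with 5 on the gene side and 3 on the far side, and 5 in the direction of the gene and 3 reversed. GGCCTAA lay on the gene side of the summit in 7 of 7 copies, by 13 to 94 bp, and read in the direction of the gene in 6 of them. The 7 copies of GTGTATG were at 4 genes, 5 on the gene side and 2 on the far side, 2 to 35 bp from the summit, with 2 copies each at rpl-15, rpl-20 and rps-1.

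**Figure D5:**
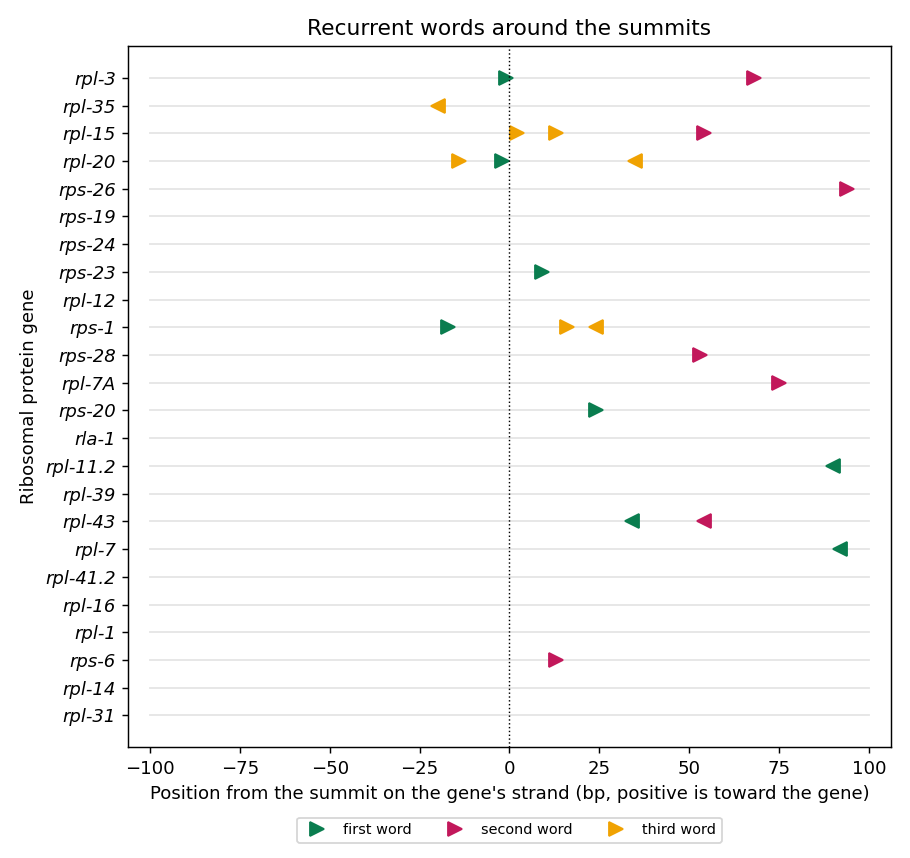
Positions of the 3 recurrent words within 100 bp of the summit (0, dotted line) in the 24 ribosomal protein peaks, ordered by signal from the top, with the gene to the right. Triangles point right where the word reads in the direction of the gene: green marks TACGGTA, pink GGCCTAA and yellow GTGTATG, and the 7 pink triangles all lie right of the summit.

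Ribosomal protein genes without a peak were not used to choose the words. In the 600 bp upstream of the most upstream start, GGCCTAA was found at 15 of the 57 (26.3%), against 3.43% of all coding genes. In the same window it was at 10 of the 24 genes with a peak (41.7%), against 4.23% of the 781 other coding genes with a peak. TACGGTA was upstream of 9 of the 57 (15.8%) and of 8.45% of all coding genes. GTGTATG was upstream of none of the 57 and of 4.60% of all coding genes. By subunit, GGCCTAA was upstream of 10 of 34 large and 5 of 23 small subunit genes without a peak. GGCCTAA was thus common upstream of ribosomal protein genes with or without an EGL-44 peak.

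The other words searched for were no more common at the summits than at other promoter peaks. Why CTGCGTC was listed is not recorded here. CATTCC, the core of the TEAD site, was within 100 bp of 1 of 24 summits (4.17%, at rpl-39), against 7.69% of the other promoter peaks and 10.6% of the 78252 ranked nuclear regions below the limit. TTTCAG, part of the worm splice acceptor, was at 4 of 24 (16.7%, against 18.1% of the other promoter peaks). Upstream of the start it was at 22 of the 24 genes and 51 of the 57 without a peak (89.5%), against 71.9% of all coding genes. CTGCGTC was at 1 of 24 summits (12.7% of the others), TATAAA at 0 (13.9%) and GGTTCGA, the box B core of tRNA genes, at 1 (7.99%). A match is a run of letters and not a bound site. The median GC content within 100 bp of the summit was 45.3% in ribosomal protein peaks, 45.8% in other promoter peaks and 39.8% in the weaker regions.

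Other genes of protein synthesis were counted in the same way. Elongation and initiation factor genes had a promoter peak at 11 of 42 (26.2%, Wilson interval 15.3 to 41.07). The strongest were iff-2, an eIF5A gene (169), eif-2Bgamma, an exchange factor subunit (144), eef-1B.1 (130) and eef-1A.2, which encodes the factor that delivers aminoacyl-tRNA (126). Their median summit position was 99 bp upstream. Mitochondrial ribosomal protein genes had 3 of 71 (4.23%), mrpl-23 (101.4), mrpl-12 (93.6) and mrps-21 (89.4), all over 500 bp upstream. Ribosome assembly and RNA polymerase I genes had 3 of 24 (12.5%): rpac-19 (121), pro-1 (112) and fib-1, the fibrillarin gene (78.2). None of ubl-1, ubq-2 and rack-1, which encode ribosomal proteins or ribosome-bound proteins under other names, had a peak. The cytosolic share was thus near that of the translation factors, and the mitochondrial share near the 4.03% of all coding genes.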

How the data were processed

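EGL-44 ChIP-seq was done on 2 biological replicates of whole young adult worms, with chromatin sheared by sonication to a size range of 200 to 800, per the labels. The 8 deposited region lists are on assembly ce11: a thresholded and a ranked list per replicate and for both together, and a conservative list with its ranked list. The signal of each region and the −log10 of the global IDR in the ranked lists are used as the authors deposited them. Which aligner and which peak caller made them is not stated in the labels or file headers. Depth is unknown. A further 8 columns with the signals of the inputs compared were not used.

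All regions lay within the reference chromosomes. Transcript starts and member symbols came from Ensembl release 115, and RefSeq symbols were matched by gene identifier for 44750 of 46926 genes. Replicate values at a peak are the strongest overlapping region of that replicate's ranked list. Sub-threshold regions are ranked nuclear regions with a global IDR above 0.01. Shares carry 95% Wilson intervals. These cover the counting of genes, which are not replicates, and no p-value was computed.

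Every member with a pooled promoter peak is named, the 10 of highest signal with replicate values, and of the others the 5 with the strongest ranked region. Members, lists and the alternatives were chosen with earlier results of these data known. The assignment and word counts were tested on simulated data. The scripts ran on pandas 2.3.3 and NumPy 2.4.6 under Python 3.11.15, with SciPy 1.17.1 for intervals and figures from Matplotlib 3.10.9.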

Additional observations from a re-analysis of the deposited data

How the results depend on the processing

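Of the 24 ribosomal protein genes with a promoter peak (16 large, 8 small subunit), the number was 13 at a global IDR of 0.001 or less (7 large) and 12 when each summit went only to the nearest start (9 large, 3 small). The matching shares of all coding genes are not given here. Whether these drops are particular to ribosomal protein genes therefore cannot be told. With each replicate left out in turn it was 11 to 15, with 5 to 9 large subunit genes. Here the other replicate's own thresholded list was used, and no pooled list was called again. The window of 500 bp up to 100 bp down gave 18 genes, 10 of them large subunit, and 2.86% of all coding genes. The window of 2000 bp up to 500 bp down gave 28, and 5.85% of all coding genes. The median summit position was −283 bp at the stricter limit, −274 bp with the nearest start, and −302 to −281 bp with one replicate left out. The median signal percentile was 77.5 at the stricter limit, 79.3 in the narrower window, 73.0 with the nearest start, and 73.2 to 79.8 with one replicate left out. The last 2 values are percentiles among the 769 nuclear peaks of replicate 1's list and the 549 of replicate 2's. They are not on the scale of the 1537 pooled peaks. Of the 5 peaks near an RNA gene start, 2 were left at the stricter limit, 0 with the nearest start, 2 to 3 with one replicate left out, and 1 for tRNA, snoRNA, snRNA and rRNA genes alone. The stricter limit, the narrower window and the nearest start admit fewer pairs of region and gene, and the cause of the shifts in the medians was not tested. Taking members by RefSeq symbols, chosen after seeing the data, gave 24 of 82. The wider window, the conservative list, all regions at a global IDR of 0.01 or less, the most upstream start alone and the omission of peaks at small RNA genes moved no count by more than 1.5 times. No paired analysis was possible because there is 1 group. Depth is unknown, so no limit from counting reads is given.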

Other observations

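A gene that starts close behind another on the same strand can be transcribed from that gene's promoter. Of the 81 ribosomal protein genes, 9 had a coding gene on the same strand ending within 500 bp upstream. A promoter peak was at 2 of these 9 (22.2%, 95% Wilson interval 6.32 to 54.7), rla-1 and rpl-16, and at 22 of the other 72 (30.6%, 21.1 to 42.0). The intervals overlap, and with 9 genes a difference of this size was not detectable.

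RefSeq gives ribosomal protein names to 4 coding genes that Ensembl names otherwise: W01D2.1 (RefSeq rpl-37.1), C37A2.7 (rplp-2.1), Y37E3.8 (rpl-27A) and ubl-1 (rps-27A, a ubiquitin fusion). None had a promoter peak, and their strongest ranked signals were 35.8, 12.2, 46.5 and 60.9.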
